A study of Mus musculus with 2 samples.

Results

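Cathepsins are the main proteases of the lysosome, and 10 cathepsin genes were followed in bulk RNA-seq of mouse kidney: Ctsa, Ctsb, Ctsc, Ctsd, Ctsh, Ctsk, Ctsl, Ctss, Ctsw and Ctsz. They were chosen by gene symbol from the 20002 genes of the deposited expression table, and 10 of 10 were found there. The libraries were labelled as kidneys of control mice and of Reg-2 CKO mice, 1 library each, and with single libraries nothing below was checked in replicates. In the Reg-2 CKO group, mice received adeno-associated virus serotype 9 (AAV9) coding for a short hairpin RNA (shRNA) against Regnase-2, an RNA-degrading protein encoded by Zc3h12b, through the tail vein at 11 weeks of age. The control group received AAV9 too, described in the methods as an empty vector in one place and as a control shRNA in another. The RNA-seq kidneys were described as 14 weeks old, while the AAV9 methods gave a harvest at 16 weeks. The label CKO therefore stands for a knockdown by shRNA and not for a deleted allele, and no promoter or Cre line was named for these mice. Targeting of the proximal tubule was attributed to the preference of AAV9 for these cells, and the study examined it by immunostaining, which was not analysed here. The labels name whole kidneys and the methods a left kidney, C57BL/6J mice were named as purchased for the study, and whether a library pooled several mice was not given in the sources used here.

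Most cathepsins are made as inactive proenzymes, carried to the lysosome by mannose 6-phosphate receptors, and activated there by acid. Cathepsins B, C, H, K, L, S, W and Z are cysteine proteases of the papain family, cathepsin D is an aspartic protease, and cathepsin A is a serine carboxypeptidase. In the kidney, proximal tubule cells take up filtered protein by endocytosis and break it down in lysosomes that are rich in cathepsins B, D, H and L, whereas cathepsins S, K and W are better known from immune cells, bone-resorbing cells and lymphocytes.

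The deposited values are whole numbers that the authors called normalized counts. Their lowest values were 35 (control column) and 51 (CKO column), shared by 371 and 285 genes, and the values were read as reads plus a constant of 34 and 50. This reading is an inference, and "reads" below means the value after that subtraction. Depth was 38851231 control reads and 43588721 CKO reads. A factor of 0.667 on the CKO reads, the median control to CKO ratio of the genes, was applied before a fold or a log2 ratio was taken, and 1 was added to both sides of each log2 ratio. The 95% Clopper-Pearson intervals below cover counting error only and say nothing about differences between mice.

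Zc3h12b, the target of the shRNA, gave 47 control reads against 59 in the CKO library. Its log2 ratio was -0.25, with an interval from -0.83 to 0.33. The interval holds 0 and, for counting error under the main scaling, leaves out a fall of the target by 2-fold or more. A smaller fall could not be told from none at this depth. The reads thus do not bear out the knockdown that the label CKO names, and with 1 library per group they cannot show that a label is wrong. The labels were taken as deposited, and the second library is called the library labelled CKO. Kidney identity was clear in both libraries. The 11 proximal tubule markers summed to 676774 reads in control and 530997 in the library labelled CKO, and 10 markers of other nephron segments and vessels summed to 149850 and 275281 reads.

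Genes were kept if either library reached 10 scaled reads, which held for 17469 genes and for 10 of 10 cathepsins. Under the main scaling, Ctss, Ctsc, Ctsk and Ctsw had the highest ratios of the 10 and were higher by 2-fold or more in the library labelled CKO. These were 4 of 10 members, against 13.4% of all genes kept, and 0 of 10 were lower by 2-fold or more, against 5.35% of all genes kept. For 3 of the 4, Ctss, Ctsc and Ctsk, the whole counting interval lay above 2-fold. The abundant lysosomal endopeptidases Ctsl, Ctsd and Ctsb had smaller positive log2 ratios, and Ctsz, Ctsa and Ctsh had negative ones, which turned positive for Ctsa and Ctsz with equal library totals and for all 3 with the values as deposited. The median log2 ratio was 0.59 for the cathepsins and 0.02 for all genes kept.

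The scaling sets where 0 lies. Of all genes called in either direction, 71.4% were higher in the library labelled CKO with the main scaling, 89.9% with equal library totals and 96.5% with the values as deposited. Equal totals put the median of all genes kept at a log2 ratio of 0.44, and the values as deposited put it at 0.57. Measured against that median, 7 cathepsins lay above it and 3 below it under the main scaling and under both of these alternatives.

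**Figure D1:**
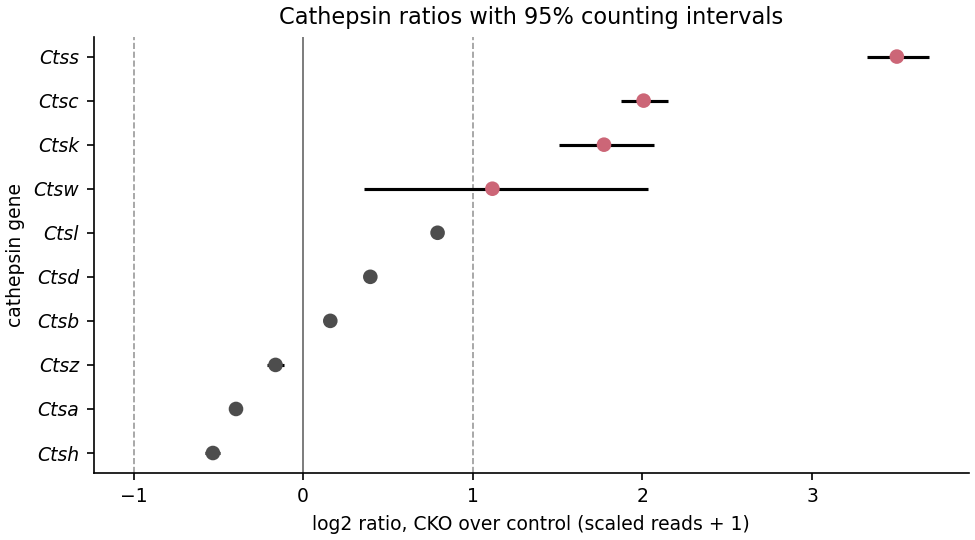
Log2 ratio of each cathepsin, CKO over control, from scaled reads plus 1 (horizontal axis, no unit), 1 point per gene with its 95% Clopper-Pearson interval for counting error, 1 library per group. Dashed lines mark 2-fold and red points are higher by 2-fold or more. Ctss lies highest at 3.50 and Ctsh lowest at -0.53. The negative values of Ctsa and Ctsz turn positive with equal library totals, and those of Ctsa, Ctsz and Ctsh with the values as deposited.

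Ctss encodes cathepsin S, an endopeptidase of antigen-presenting cells that trims the invariant chain from MHC class II molecules and stays active at neutral pH. On GRCm38 it spans bases 95526786 to 95556405 of chromosome 3, plus strand, by RefSeq. Ctss gave 264 control reads against 4495 in the library labelled CKO. After scaling the difference was 11.4-fold, with a counting interval from 10.02 to 12.9, and a log2 ratio of 3.50. Among the 17469 genes kept, Ctss ranked 87 from the top. Its log2 ratio stayed between 3.35 and 3.93 under every scaling, subtraction and pseudocount tried.

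Promoters, here the 250 bases before and 50 after a RefSeq transcription start in GRCm38.p6, were held in the reference tables for 7 of the 10 cathepsins. Ctsb, Ctsh and Ctsw are only named in this respect. The promoters were searched on both strands for GAGGAAGT, a string of the kind bound by ETS-family factors such as PU.1 of myeloid cells. It was present in 2 of the 7 cathepsins, Ctss and Ctsc, in 3.2% of the 32851 promoters of all genes and in 3.69% of the 12932 kept genes with a promoter sequence. The windows are shown because these genes had the 2 highest log2 ratios of the 10 cathepsins followed. Capitals mark the match, which reads as the reverse complement in both. The Ctss window lies at chr3:95526773-95526802 on the plus strand, with the match starting 2 bases before the start site. The Ctsc window lies at chr7:88277923-88277952 on the plus strand, with the match starting 151 bases before it.
Ctss: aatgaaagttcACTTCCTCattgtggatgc
Ctsc: gtcactaactaACTTCCTCaggccacctcg
Of the 477 kept genes with GAGGAAGT in a promoter, 22.4% were higher by 2-fold or more in the library labelled CKO, against 12.9% of the kept genes with promoters that lacked it. The shares lower by 2-fold or more were 3.35% and 5.32%. A match describes the letters in the window, and no binding was measured.

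The class II pathway that cathepsin S serves was described next to it. Of 11 listed genes, 10 were in the table and were kept (median log2 ratio 2.51). Of these, 8 were higher by 2-fold or more in the library labelled CKO, against 13.4% of all genes kept. Lower by 2-fold or more were 0 of the 10, against 5.35% of all genes kept. Cd74, which encodes the invariant chain, had the most reads of the list, 2610 in control and 23956 in the library labelled CKO (log2 ratio 2.61). H2-DMb2, a subunit of the peptide-loading chaperone, had the highest ratio, with 72 and 1502 reads (log2 ratio 3.78). Ifi30, a lysosomal thiol reductase, had the lowest, with 1607 and 2641 reads (log2 ratio 0.13).

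Ctsc encodes cathepsin C, or dipeptidyl peptidase I, which removes dipeptides from the amino end of proteins and thereby activates the serine proteases of leukocyte and mast cell granules. Ctsc gave 499 control reads against 3013 in the library labelled CKO. The scaled difference was 4.03-fold, with a counting interval from 3.66 to 4.43, and the log2 ratio was 2.01. Of 11 granule proteases known as its substrates or close relatives of these, 2 were in the table and both had few reads. Gzma had 18 and 14 reads (log2 ratio -0.88), and Gzmm had 10 and 19 reads (log2 ratio 0.31). Neither granzyme was higher by 2-fold or more, and the other 9 were not analysed here. The Ctsc promoter also held TTCNNNGAA, a string of the kind bound by STAT factors, which was present in 1 of the 7 cathepsins, in 8.30% of all promoters and in 8.54% of kept genes with a promoter sequence.
Ctsc: agctttggcgTTCCTTGAAaggcagaggt
Here the capitals mark TTCNNNGAA, at chr7:88277839-88277867 on the plus strand of GRCm38.p6. Of the kept genes with this string in a promoter, 17.3% were higher and 5.98% lower by 2-fold or more. Among kept genes with promoters that lacked it, the shares were 12.9% and 5.18%.

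Ctsk encodes cathepsin K, the collagen-degrading protease of osteoclasts, which fibroblasts and some macrophages also make. Ctsk gave 128 control reads against 660 in the library labelled CKO, which was 3.44-fold higher after scaling with a counting interval from 2.84 to 4.19. Its log2 ratio was 1.77. The ratios of Ctsc and Ctsk could not be separated by counting error, since their quotient was 1.17 with an interval from 0.95 to 1.45. Ctsk and Ctss are neighbours on chromosome 3, 17398 bases apart in RefSeq on GRCm38. The genes on the outer sides of this pair had smaller ratios: Arnt, next to Ctsk, had 1350 and 2210 reads (log2 ratio 0.13), and Golph3l, next to Ctss, had 934 and 1874 reads (log2 ratio 0.42). Within each library, Ctss had 2.06 reads for every Ctsk read in control and 6.81 in the library labelled CKO, so the neighbours differed by unequal amounts.

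Ctsw encodes cathepsin W, a papain-family member found mainly in natural killer cells and cytotoxic T cells. It had the fewest reads of the family, 17 in control and 57 in the library labelled CKO. The scaled fold was 2.24 with a counting interval from 1.28 to 4.10, and the log2 ratio was 1.12. The interval reaches below 2-fold, and the call is lost with a pseudocount of 10, at a log2 ratio of 0.83, and with nothing subtracted and the median-ratio scaling, at 0.49. With the values as deposited, where nothing is subtracted either, it is kept at 1.05. With nothing subtracted Ctsl lay above Ctsw, at 0.80 with the median-ratio scaling and 1.38 with the values as deposited. Under the main scaling, the ratio of Ctsw could not be separated by counting error from those of Ctsk above and Ctsl below. The other 6 pairs of neighbours in the order of ratios, from Ctss and Ctsc to Ctsa and Ctsh, differed by more than counting error.

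**Figure D2:**
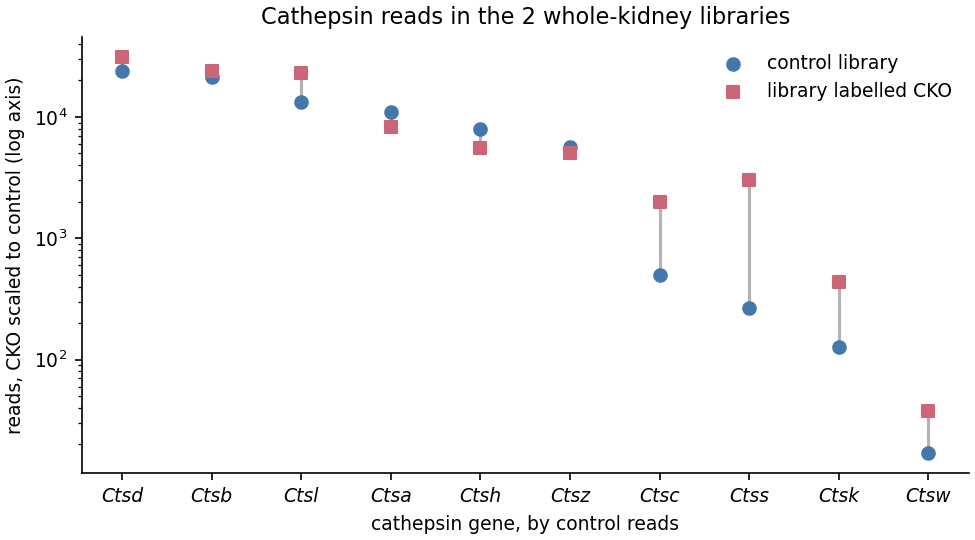
Reads of each cathepsin in control (circles) and, scaled, in the library labelled CKO (squares), on a log axis, with genes ordered by control reads and 1 library per group. Ctsd has the most reads, 23911 in the control library, and Ctsw the fewest, 17. The gap between the libraries is widest for Ctss.

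Ctsl, Ctsd and Ctsb encode the endopeptidases that do much of the bulk protein breakdown in lysosomes. Ctsl encodes cathepsin L, a cysteine endopeptidase and a main protein-degrading enzyme of proximal tubule lysosomes. It gave 13203 control reads against 34299 in the library labelled CKO (log2 ratio 0.79, interval from 0.76 to 0.82). This 1.73-fold difference was the highest among the 3 and passed 2-fold, among the alternatives run, only with equal library totals, at a log2 ratio of 1.21, and with the values as deposited, at 1.38.

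Ctsd encodes cathepsin D, the aspartic endopeptidase that also processes other lysosomal proenzymes. It gave 23911 control reads against 47190 in the library labelled CKO (log2 ratio 0.40, interval from 0.37 to 0.42). Ctsb encodes cathepsin B, a cysteine protease that acts both as an endopeptidase and as a carboxydipeptidase. It had 21325 and 35735 reads (log2 ratio 0.16, interval from 0.14 to 0.18). Within the libraries, where no scaling enters, Ctsl had 0.619 reads for each Ctsb read in control and 0.960 in the library labelled CKO. The 3 endopeptidases therefore differed from each other by more than counting error, in the order Ctsl, Ctsd, Ctsb.

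Ctsz, Ctsh and Ctsa encode mainly exopeptidases, which trim single residues from protein ends. Ctsz, for the carboxypeptidase cathepsin Z, gave 5642 control reads against 7558 in the library labelled CKO. The log2 ratio was -0.16, with an interval from -0.21 to -0.11, and became 0.26 with equal totals and 0.42 for the deposited values. Ctsh, for the aminopeptidase cathepsin H, had 8005 and 8303 reads and the lowest ratio of the family, -0.53, with an interval from -0.58 to -0.49. This was 1.45-fold lower, and it turned to 0.06 with the values as deposited but not with equal totals, where it was -0.11. Within the libraries, Ctsl had 1.65 reads for each Ctsh read in control and 4.13 in the library labelled CKO.

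Ctsa encodes cathepsin A, a carboxypeptidase that also forms a complex with neuraminidase 1 and beta-galactosidase and protects them in the lysosome. It gave 10941 control reads against 12471 in the library labelled CKO (log2 ratio -0.40, interval from -0.43 to -0.36), and the ratio became 0.02 with equal totals and 0.19 for the deposited values. Its partners were chosen for mention after their values were seen. Neu1, for neuraminidase 1, had 17419 and 14068 reads (log2 ratio -0.89), and Glb1, for beta-galactosidase, had 8347 and 6233 reads (log2 ratio -1.01). The partners thus had lower ratios than Ctsa in the same libraries.

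Many lysosomal genes carry the string CACGTG, or the longer TCACGTGA that contains it, which the MiT/TFE factors such as TFEB can bind. CACGTG was present in 3 of the 7 cathepsins with a promoter sequence, Ctsa, Ctsd and Ctsl, in 7.15% of all promoters and in 11.0% of the 12932 kept genes with a promoter sequence. TCACGTGA was present in 2 of the 7, Ctsa and Ctsd, in 0.974% of all promoters and in 1.93% of those kept genes. Ctsk and Ctsz held none of the 4 strings searched in these windows. Some RefSeq starts used here differ from the GENCODE gene starts: for Ctsk, base 95499210 lies upstream of 95499256, while for Ctsd and Ctsl, on the minus strand, bases 142387827 and 64370520 lie downstream of 142388038 and 64370890. The Ctsd and Ctsl windows below are therefore inside the genes as GENCODE draws them, and so is the Ctsa window, at a start site downstream of the first. The windows below show TCACGTGA in capitals for Ctsa and Ctsd and CACGTG for Ctsl, each read along the gene's own strand in GRCm38.p6, at chr2:164833758-164833786 on the plus strand, chr7:142387908-142387937 on the minus strand and chr13:64370739-64370768 on the minus strand.
Ctsa: tgTCACGTGAtgcagatgcTCACGTGAcc
Ctsd: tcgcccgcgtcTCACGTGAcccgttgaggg
Ctsl: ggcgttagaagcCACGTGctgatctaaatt
The Ctsa window holds 2 matches, on either side of a start site, and a second Ctsa promoter in the table held none. The cathepsins with these strings had ratios of both signs with the main scaling, positive for Ctsl and Ctsd and negative for Ctsa, and positive ratios with equal totals. Of the 250 kept genes with TCACGTGA, 6.40% were higher by 2-fold or more and 1.60% lower by 2-fold or more (median log2 ratio -0.10), against 13.4% and 5.32% of the kept genes with promoters that lacked it. The 4 MiT/TFE genes, all kept, had 0 different by 2-fold or more in either direction and a median log2 ratio of 0.04. Mitf was the highest of them, with 472 and 1091 reads (log2 ratio 0.62), and passed 2-fold with equal totals. Tfec was the lowest, with 907 and 1071 reads (log2 ratio -0.34), and Tfe3 had the most reads in the control and CKO libraries together, 883 and 1423, with a log2 ratio of 0.10.

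The 10 cathepsins together took a larger share of the library labelled CKO. Cathepsin reads made up 0.216% of the control library, with a binomial interval from 0.215% to 0.218%, and 0.353% of the library labelled CKO, with an interval from 0.351% to 0.355%. After scaling, the sum was 1.22-fold higher. Most of these reads came from the abundant endopeptidases: Ctsb, Ctsd and Ctsl held 69.6% of cathepsin reads in control and 76.2% in the library labelled CKO. Ctsc, Ctsk, Ctss and Ctsw together held 1.08% and 5.35%. The genes with the highest ratios were therefore a small part of the cathepsin RNA in both libraries. Ctsd had 90.6 reads for each Ctss read in control and 10.5 in the library labelled CKO.

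**Figure D3:**
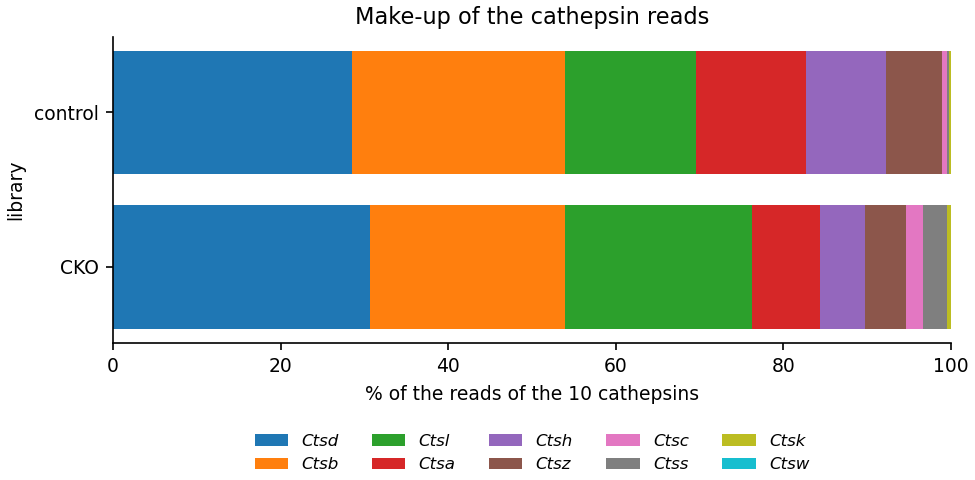
Share of each gene in the reads of the 10 cathepsins, in percent, with 1 bar for the control library and 1 for the library labelled CKO. Ctsb, Ctsd and Ctsl together fill 69.6% and 76.2% of the bars, and Ctsc, Ctsk, Ctss and Ctsw 1.08% and 5.35%.

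Levels of different genes were compared per length, as RPKM, which divides reads by the length of the principal GENCODE transcript and by the library total. Ctsd was the highest in both libraries, at 289 in control and 509 in the library labelled CKO, and Ctsw was the lowest, at 0.353 and 1.05. Ctss had a level of 5.01 in the control library, close to the 5.15 of Ctsc, and of 76.1 in the library labelled CKO, close to the 78.5 of Ctsa. With merged exons, a length chosen after the data were seen, Ctsc was at 2.21 in control and Ctsa at 60.7 in the library labelled CKO, so the place of Ctss beside either depends on the length taken. Ctsl stood next to Ctsd in both libraries, at 172 and 399, and this place depends on the length too. With the longest coding transcript, also chosen after the data were seen, its control level was 55.1 and 5 cathepsins lay above it.

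**Figure D4:**
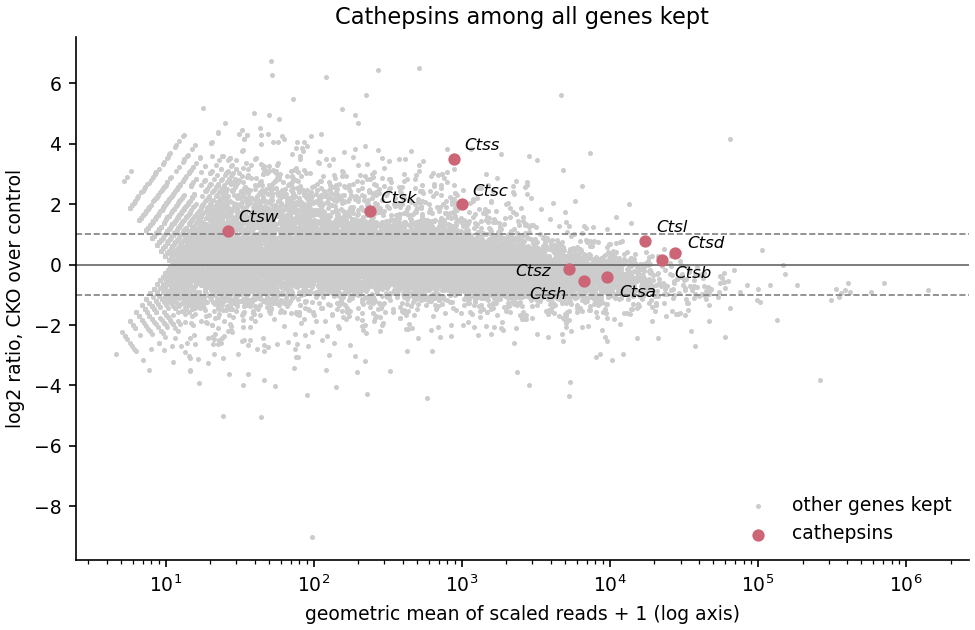
Log2 ratio of CKO over control (vertical axis) against the geometric mean of scaled reads plus 1 in the 2 libraries (horizontal log axis), with 1 grey point per gene kept, 17469 in all, and the cathepsins in red. Dashed lines mark 2-fold. Ctss, Ctsc and Ctsk lie above the upper line at intermediate read numbers, and the 6 cathepsins with the most reads lie between the lines; the small negative ratios of Ctsa and Ctsz change sign with equal totals, those of Ctsa, Ctsz and Ctsh with the values as deposited.

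Cystatins, stefins and kininogens hold cysteine cathepsins in check, and the fetuins were listed with them as relatives by sequence, although fetuin-B is known for inhibiting metalloproteases of the astacin type. Of 16 listed genes, 5 were in the table and were kept, 2 of these were higher by 2-fold or more, against 13.4% of all genes kept, and the median log2 ratio was 0.92. The number was 3 with equal totals, where Cstb was added, and 4 as deposited, where Cst3 was added too. Cst3, for the secreted inhibitor cystatin C, had the most reads, 7858 in control and 17513 in the library labelled CKO (log2 ratio 0.57). Kng1, for a kininogen, had the highest ratio, with 97 and 392 reads (log2 ratio 1.42), and Fetub was the other gene past 2-fold, with 25 and 99 reads (log2 ratio 1.37). Kng2 had the lowest, with 8012 and 14126 reads (log2 ratio 0.23). The 5 genes had positive log2 ratios under the main scaling. The other 11 were not analysed here.

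Other lysosomal lists had lower medians than the cathepsins. Of 10 other lysosomal proteases kept, 1 was higher by 2-fold or more and 1 lower by 2-fold or more (median log2 ratio -0.29). Of all genes kept, 13.4% were higher and 5.35% lower by 2-fold or more. The list holds 3 further cathepsins. Ctse, for the aspartic protease cathepsin E, had 19 and 162 reads (log2 ratio 2.45). Ctsf and Ctso, for cysteine cathepsins named after their values were seen, had 2144 and 2707 reads (log2 ratio -0.25) and 1124 and 2267 reads (log2 ratio 0.43). With the values as deposited, Ctso passed 2-fold, and 2 genes of the list were higher by 2-fold or more and 0 lower. Napsa, for napsin A, the aspartic protease with the most reads in the list, had 78389 and 55844 reads (log2 ratio -1.07), and it was within 2-fold with equal totals. The aspartic proteases Ctsd, Ctse and Napsa thus covered a wide range of ratios.

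Sorting to the lysosome was followed in 11 genes, 0 of which were different by 2-fold or more (median log2 ratio -0.20). Of all genes kept, 13.4% were higher and 5.35% lower by 2-fold or more. Psap, for a precursor of sphingolipid activators, had the most reads, 49504 and 55091, and a log2 ratio of -0.43. Igf2r, for the large mannose 6-phosphate receptor, was the lowest at -0.68, with 6951 and 6521 reads, and Sort1, for sortilin, the highest at 0.52, with 1593 and 3435 reads. The carriers of cathepsins therefore stayed within 2-fold with the main scaling and with equal totals. With the values as deposited, Sort1 was higher by 2-fold or more.

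Of 29 lysosomal glycosidases, lipases, sulfatases and related hydrolases, 0 were higher by 2-fold or more and 4 lower by 2-fold or more (median log2 ratio -0.17). Of all genes kept, 13.4% were higher and 5.35% lower by 2-fold or more. The 4 lower hydrolases were Gusb, Galns, Ppt2 and Glb1, of which 1, Gusb, stayed lower by 2-fold or more with equal totals or as deposited. Gusb, for beta-glucuronidase, was the lowest, with 7146 and 2174 reads (log2 ratio -2.30), and Pla2g15, for a lysosomal phospholipase, the highest, with 276 and 700 reads (log2 ratio 0.76). Pla2g15 was higher by 2-fold or more with equal totals and as deposited, and Hexa as deposited. Of 25 genes for lysosomal membrane proteins and proton pump subunits, 0 were different by 2-fold or more and the median log2 ratio was -0.31. Lamp1, for a major membrane protein, had the most reads, 45474 and 53365, and a log2 ratio of -0.35. Tcirg1 was the highest of these at 0.48, with 942 and 1973 reads, and Atp6v1a the lowest at -0.50, with 21097 and 22306 reads. Tcirg1 was higher by 2-fold or more with the values as deposited. With equal totals the medians of the other proteases, sorting genes, hydrolases and membrane genes were 0.13, 0.22, 0.25 and 0.11, each below the all-gene median of 0.44, and that of the cathepsins was 1.01.

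**Figure D5:**
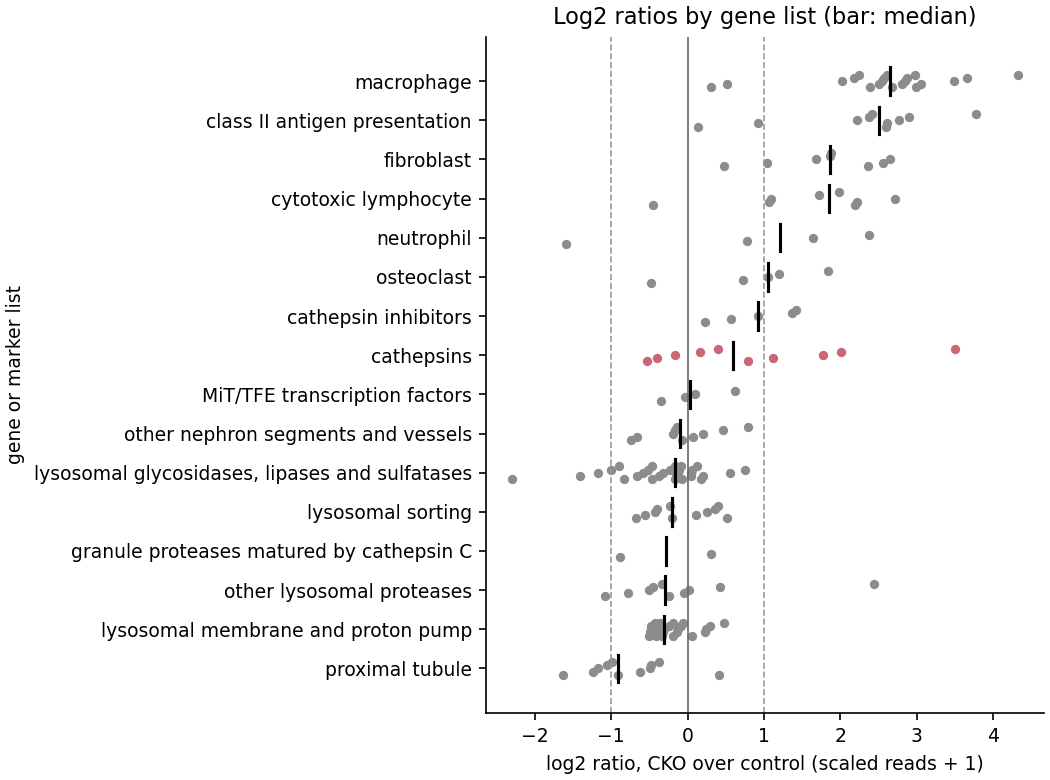
Log2 ratio of CKO over control for each kept gene of each list (grey points, cathepsins in red), with black bars at list medians and dashed lines at 2-fold, 1 library per group, main scaling. Macrophage, class II, fibroblast and cytotoxic lymphocyte lists have medians of 2.64, 2.51, 1.87 and 1.85, and the proximal tubule list has a median of -0.91. The cytotoxic lymphocyte median is 1.03 with the values as deposited. Medians of the lysosomal sorting, hydrolase, membrane and other protease lists are negative here and positive with equal totals.

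Markers of the cells known for these cathepsins were counted in the same libraries. In bulk RNA, more cells of a type and more RNA per cell cannot be told apart, nor can fewer cells and less RNA per cell. Of 20 macrophage markers, 20 were kept (median log2 ratio 2.64). In the library labelled CKO, 18 were higher by 2-fold or more, against 13.4% of all genes kept. The 20 markers summed to 5279 reads in control and 37224 in the library labelled CKO, and none had 3 or fewer reads. Lyz2, for lysozyme, had the most reads over both libraries, 518 and 9836, a log2 ratio of 3.66. Ms4a7 had the highest ratio, with 6 and 210 reads (log2 ratio 4.33, interval from 3.40 to 6.01). It passed the filter only through the library labelled CKO, so its place at the top is not independent of that selection.

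For every 100 macrophage marker reads, there were 5.0 Ctss reads in control and 12.1 in the library labelled CKO, and 9.45 and 8.09 Ctsc reads. Csf1r, named after its values were seen, made up 2244 of the marker reads in control and 4803 in the library labelled CKO (log2 ratio 0.51). Without it, an alternative chosen after the data were seen, Ctss stood at 8.70 and 13.9 and Ctsc at 16.4 and 9.29. Ctss thus differed by more than the marker sum and Ctsc by less, either way, and the size of both gaps depends on Csf1r. The part of macrophage RNA in either difference was not tested.

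Of 9 cytotoxic lymphocyte markers in the table, out of 12 listed, 8 were kept (median log2 ratio 1.85). Of these, 7 were higher by 2-fold or more, against 13.4% of all genes kept. Cd3e, Cd8a and Nkg7, with 6, 8 and 7 control reads, passed the filter only through the library labelled CKO. Their calls, and their part in the median, are therefore not independent of that selection. The 9 markers summed to 91 reads in control and 511 in the library labelled CKO. Ccl5 had the most reads and the highest ratio, 16 and 166 reads and a log2 ratio of 2.72. Ncr1 had the lowest ratio, with 15 and 16 reads (log2 ratio -0.46). With the values as deposited, 5 of 9 were higher by 2-fold or more and the median was 1.03. The calls lost were Nkg7, whose counting interval ran from -0.07 to 2.65 under the main scaling, and Prf1. Ctsw stood at 18.7 reads per 100 of these marker reads in control and 11.2 in the library labelled CKO. The part of these cells in the Ctsw difference was not tested.

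Of 10 neutrophil markers, 4 were in the table and were kept (median log2 ratio 1.21). Of these, 2 were higher by 2-fold or more, against 13.4% of all genes kept, and 1 lower, against 5.35%. The 4 markers summed to 58 reads in control and 267 in the library labelled CKO. Csf3r had the most reads and the highest ratio, 22 and 177 reads and a log2 ratio of 2.37. Ltf had the lowest ratio, with 16 and 7 reads (log2 ratio -1.58). Its counting interval, from -3.30 to -0.42, reaches inside 2-fold. S100a8, with 7 control reads, passed the filter only through the library labelled CKO, and equal totals added it to the genes called higher. The deposited values lost the call of Ltf, at a median of 1.0. The part of neutrophil RNA in the Ctsc difference was not tested.

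For Ctsk, markers of osteoclasts and fibroblasts were counted. Of 8 osteoclast markers, 6 were in the table and 5 were kept (median log2 ratio 1.05). Of these, 3 were higher by 2-fold or more, against 13.4% of all genes kept, and 4 were with equal totals or as deposited. The 6 markers summed to 2462 and 4195 reads. Most of that sum came from Atp6v0d2, with 880 and 2177 reads (log2 ratio 0.72), and Acp5, the lowest at -0.47, with 1462 and 1580 reads. Calcr, the calcitonin receptor and the highest at 1.84, had 20 and 111 reads. Ocstamp, which defines fusing osteoclasts, was near 0 with 3 and 8 reads.

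Of 9 fibroblast markers, 8 were in the table and were kept (median log2 ratio 1.87). Of these, 7 were higher by 2-fold or more, against 13.4% of all genes kept. The 8 markers summed to 6588 reads in control and 32844 in the library labelled CKO. Col3a1, a fibrillar collagen gene, had the most reads, 1107 and 9779, and a log2 ratio of 2.56. Col1a1 was the highest at 2.65, with 288 and 2711 reads, and Pdgfrb the lowest at 0.48, with 1513 and 3170 reads. Ctsk stood at 1.94 reads per 100 fibroblast marker reads in control and 2.01 in the library labelled CKO, while per 100 osteoclast marker reads it stood at 5.2 and 15.7. Without Acp5 and Atp6v0d2, chosen after the data were seen, the osteoclast markers summed to 120 and 438 reads and Ctsk stood at 107 and 151 per 100, so this comparison rests largely on those 2 genes. The part of either cell type in the Ctsk difference was not tested.

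Of 11 proximal tubule markers, 0 were higher by 2-fold or more and 4 lower by 2-fold or more (median log2 ratio -0.91). The shares of all genes kept were 13.4% higher and 5.35% lower. Of the 4 lower markers, Slc22a6 alone stayed past 2-fold with equal totals (list median -0.49) and as deposited (list median -0.32). Slc27a2, a fatty acid transporter with the most reads, had 157696 and 100638 reads (log2 ratio -1.23). Slc22a6, an organic anion transporter, was the lowest at -1.62, with 50329 and 24475 reads, and Slc5a12, a lactate transporter, the highest at 0.41, with 25259 and 50338 reads. Per 100 reads of these markers, Ctsh stood at 1.18 in control and 1.56 in the library labelled CKO, and Ctsa at 1.62 and 2.35. Relative to the marker sum, both genes were thus higher in the library labelled CKO, and the part of proximal tubule RNA was not tested. Of 10 markers of other segments and vessels, 0 were different by 2-fold or more (median log2 ratio -0.10), while 1 was higher by 2-fold or more with equal totals and 2 as deposited. Umod, for uromodulin, had the most reads, 90047 and 187056, and a log2 ratio of 0.47. Aqp2 was the highest at 0.79, with 4762 and 12359 reads.

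Some cathepsin reads could belong to overlapping genes, because the kit keeps strand but the strand setting of the counting was not given in the sources used here. Ctsa shares 495 exon bases with Pltp on the opposite strand, which had 149 and 783 reads, and 324 with Neurl2, which had 32 and 27. Ctsb shares 774 exon bases with Fdft1 on the opposite strand, with 872 and 1589 reads. Set beside the reads of Ctsa and Ctsb, each neighbour was small in both libraries. Ctsw shares 9 exon bases with Fibp on the opposite strand, which had 886 and 1370 reads, more than Ctsw itself, and Ctsz shares 10 with Nelfcd, which had 874 and 1330. Ctsd shares 808 exon bases with the gene model Gm49369 on the same strand, and Ctsl overlaps an antisense gene and a processed pseudogene, so their counts carry this uncertainty.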

How the data were processed

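The deposited table gives 1 score per gene for each of the 2 libraries: whole numbers that the authors called normalized counts, for 20002 genes. Per the submitters' processing notes, reads were aligned to mm10 with STAR 2.7.3a, counted with HTSeq and processed with DESeq2, edgeR and Cufflinks 2.2.1. Here the column minimum less 1 was subtracted, the CKO reads were multiplied by 0.667, a gene was kept once either library reached 10 scaled reads, and a ratio was called from 2-fold. With 1 library per group no test was made. Clopper-Pearson intervals (95%) came from the share of CKO reads in both libraries together, and intervals of the quotient of 2 ratios from the sample odds ratio on the log scale (scipy).

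The members and lists were chosen with earlier results of these data known. Named genes were each of the 10 cathepsins, the highest, the lowest and the most abundant kept gene of each list, markers with 3 or fewer reads, and Zc3h12b; others were chosen after their values were seen. Some genes that this rule covers are not reported here. Lengths used the principal transcript of GENCODE M21 (GRCm38). All 10 symbols matched RefSeq, and promoters came from RefSeq (GRCm38.p6). Alternatives were other pseudocounts, scalings, subtractions, filters, thresholds and lengths. The steps were tested on simulated data, which had the same constants built in and few changed genes, in equal numbers each way. That test therefore could not check the reading of the constants or the choice of scaling for these libraries. Python 3.11.15, numpy 2.4.6, pandas 2.3.3, scipy 1.17.1 and matplotlib 3.10.9 were used.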

Additional observations from a re-analysis of the deposited data

How the results depend on the processing

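No paired analysis was possible because there was 1 library per group. Of 80 log2 ratios of single cathepsins recomputed under 8 alternatives, 59 stayed within their counting interval, 16 moved beyond it with the same sign and 5 changed sign. With equal library totals, Ctsa became 0.0228 and Ctsz 0.256, and with the values as deposited, Ctsa became 0.190, Ctsh 0.0553 and Ctsz 0.423. The factor on the CKO reads was 0.667 in the main setting and 0.891 with equal totals, which raises every ratio. The median of the cathepsins was 1.01 with equal totals, 0.625 with equal upper quartiles, 0.448 with nothing subtracted but scaled, 1.02 with the values as deposited and 0.396 with at least 50 scaled reads, a filter that removes Ctsw. At 4-fold, 2 cathepsins were higher, against 4.29% of all genes kept, and 0 lower, against 0.95%. Under the other alternatives with a 2-fold threshold 3 to 5 were higher by 2-fold or more and 0 lower by 2-fold or more. Of all genes kept under each of these alternatives, 5.98% to 21.9% were higher and 0.655% to 5.81% lower. The share of reads in cathepsins was 0.213% and 0.346% with the values as deposited. Levels per length were also computed with the longest coding transcript and with merged exons, chosen after the data were seen, which reordered the cathepsins between Ctsd and Ctsw. Cathepsin reads per 100 marker reads were also computed without Csf1r for macrophages and without Acp5 and Atp6v0d2 for osteoclasts, chosen after the data were seen, which raised the values beyond their counting intervals in both libraries. Depth limits Ctsw most, with 17 reads in the control library.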

Other observations

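The nearest protein-coding genes of the table on either side of each cathepsin, leaving out genes that overlap it, were listed after the values of the cathepsins were seen. Some lie far off, up to 879313 bases for Nox4. Of 17 such neighbours kept, other than cathepsins, 3 were higher by 2-fold or more in the library labelled CKO, against 13.4% of all genes kept, and 0 lower by 2-fold or more (median log2 ratio 0.13). Both neighbours of Ctsd were among the 3. Ifitm10, of the interferon-induced transmembrane family, gave 14 control reads against 83 in the library labelled CKO (log2 ratio 1.91). Lsp1, for an actin-binding protein of leukocytes, had 114 and 678 reads (log2 ratio 1.98). Ctsd between them had a log2 ratio of 0.40. The third was Efemp2, for an extracellular matrix protein, beside Ctsw, with 295 and 1134 reads (log2 ratio 1.35). Beside Ctsc, Nox4, for a NADPH oxidase abundant in kidney, had 8954 and 18215 reads (log2 ratio 0.44), and Rab38, for a small GTPase of lysosome-related organelles, had 505 and 472 reads (log2 ratio -0.68). Of the overlapping genes left out, Pltp, for a phospholipid transfer protein, overlaps Ctsa and gave 149 control reads against 783 in the library labelled CKO (log2 ratio 1.80).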
